A study of Mus musculus with 6 samples.

Results

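Axon guidance genes of the Eph/ephrin, Slit/Robo and netrin families were examined by RNA-seq of the primary somatosensory cortex, taken from C57BL/6 mice at an age of 14 days. The 40 genes were taken by symbol from a given list, and 39 of them had a row among the 47794 genes of the deposited table; for Ntn3 the expression is not analysed here and only its promoter window was searched. One group carried the β-cat lox(ex3) allele together with Nex-Cre (overexpression, 3 libraries), and the other carried the β-cat lox(ex3) allele alone (control, 3 libraries). Recombination of that allele removes exon 3 of Ctnnb1, the β-catenin gene, and with it the residues that mark the protein for degradation. Nex-Cre acts in forebrain excitatory neurons, and the dissected cortex also held interneurons, glia and vessels, which that driver is not known to target. The labels number the libraries without saying that each came from its own animal, so p-values measure the spread between libraries, which may be technical in part.

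Guidance receptors steer growing axons and dendrites by attraction or repulsion. Eph receptors are receptor tyrosine kinases that bind membrane-bound ephrins on neighbouring cells; ephrin-As are held by a lipid anchor and ephrin-Bs span the membrane, and signals pass in both directions. Slits are secreted repellents read by Robo receptors, and netrins attract through Dcc or repel through Unc5 receptors. In the intestine of mice, Ephb2, Ephb3 and Efnb1 are known to respond to β-catenin acting with TCF/LEF factors, which places these families among the genes of interest when β-catenin is stabilised.

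To show what a TCF/LEF motif looks like at these genes, the promoter windows of 35 members found in the RefSeq table (GRCm38.p6) were searched over the 250 bases before each annotated start. The motifs searched on either strand were CTTTGAA and, with the same core, CTTTGAT; the others were CTTTGTA and also CTTTGTT. Of the 35 genes, whose 40 windows ran from 44.8% to 84% GC, Epha2 and Efna4 were the 2 (5.71%) with a match. That made 5% of the 40 windows, against 14.8% of all 32851 promoter windows. GC content was not matched to that of all windows, so the 2 shares are not like for like. The 200 bases that end 51 bases before the start are shown for Epha2 and Efna4, and for Ephb3, which held no match. Capitals mark the motif, and each run reads 5′ to 3′ on the strand of its gene.
Epha2, chr4:141300971-141301170, plus strand: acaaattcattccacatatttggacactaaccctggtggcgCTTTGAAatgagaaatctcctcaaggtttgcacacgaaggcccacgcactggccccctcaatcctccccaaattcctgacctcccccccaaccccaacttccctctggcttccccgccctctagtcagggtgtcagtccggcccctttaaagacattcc
Efna4, chr3:89338079-89338278, minus strand: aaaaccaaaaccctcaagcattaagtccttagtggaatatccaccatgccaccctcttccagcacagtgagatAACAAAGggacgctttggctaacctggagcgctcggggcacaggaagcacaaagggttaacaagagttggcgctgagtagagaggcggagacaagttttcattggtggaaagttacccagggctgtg
Ephb3, chr16:21204545-21204744, plus strand: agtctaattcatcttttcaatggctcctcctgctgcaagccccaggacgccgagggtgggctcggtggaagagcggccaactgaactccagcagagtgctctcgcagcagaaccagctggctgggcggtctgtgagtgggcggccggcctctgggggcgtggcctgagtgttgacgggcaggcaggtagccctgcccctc
A match is a description of these letters and not a binding site, and more distant elements were not searched.

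Values are mean scaled read counts per group, the mean over 3 libraries of reads divided by a scaling factor for each library. Those means summed to 18602579 over all genes in overexpression cortex and 19016749 in control cortex. Ctnnb1 had a mean of 6391 in overexpression cortex and 7574 in control cortex, but a gene-level value also counts the exons outside the removed one and does not check the genotype. For Neurod6, in whose locus the Cre gene sits, the mean was 1199 in overexpression cortex and 1942 in control cortex. The authors' deposited table lists its unadjusted p as 5.04e-05, the smallest of all genes whose mean reached 100, and its adjusted p as 0.76. For Ctnnb1 the unadjusted p in that table was 0.0304. Only the overexpression group carried Nex-Cre, so any effects of the Cre allele and of stabilised β-catenin cannot be told apart. For comparisons between genes, means were divided by exon length from GENCODE M21 and are given per kilobase. Group means have no spread of their own, so library values were recovered where the digits of both means allowed it, which was the case for 16 of the 39 genes. For 7 further genes the control libraries alone could be recovered, and for 16 neither group could. The libraries are called A, B and C within each group and cannot be tied to replicate numbers.

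No guidance gene passed the authors' test between the groups. By the authors' deposited table, 0 of 39 members passed at an adjusted p under 0.05, where 0% of the 30152 tested genes did. At an unadjusted p under 0.05 the same table, the authors' deposited table, held 0 members, where 0.534% of tested genes passed, 0.328% with a higher and 0.206% with a lower mean in overexpression cortex. A count of 0 among 39 is close to that background and does not show that the members were alike in both groups. The smallest unadjusted p among members was 0.147, for Ephb3, and the median was 0.628, where it was 0.725 over all tested genes, all from the authors' deposited table. Of the 39 members 27 had a lower mean and 12 a higher mean in overexpression cortex. Lower means were also the more frequent among all genes, at 53.2% of those whose mean reached 10 and 57.8% of those whose mean reached 100, a level at which 22 of 34 members were lower. The median log2 fold change was -0.04 over the members and -0.009 over all genes above 0 in both groups. Where the mean reached 100, it was -0.03 over the members and -0.02 over all genes. Robo3 was the only member of 39 whose group means differed by 1.2-fold or more, a size reached by 2.68% of all genes whose mean reached 100 and by 13% of those whose mean reached 10. Set against the 5th to 95th percentile of log2 fold changes of all genes whose mean reached 100, 8 of the 39 members lay below it (Slit3, Epha2, Epha3, Ntng1, Efna5, Ephb3, Ntn1 and Ntn5) and 1 above. Of the 34 members whose own mean reached 100, 6 lay below and 1 above.

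**Figure D1:**
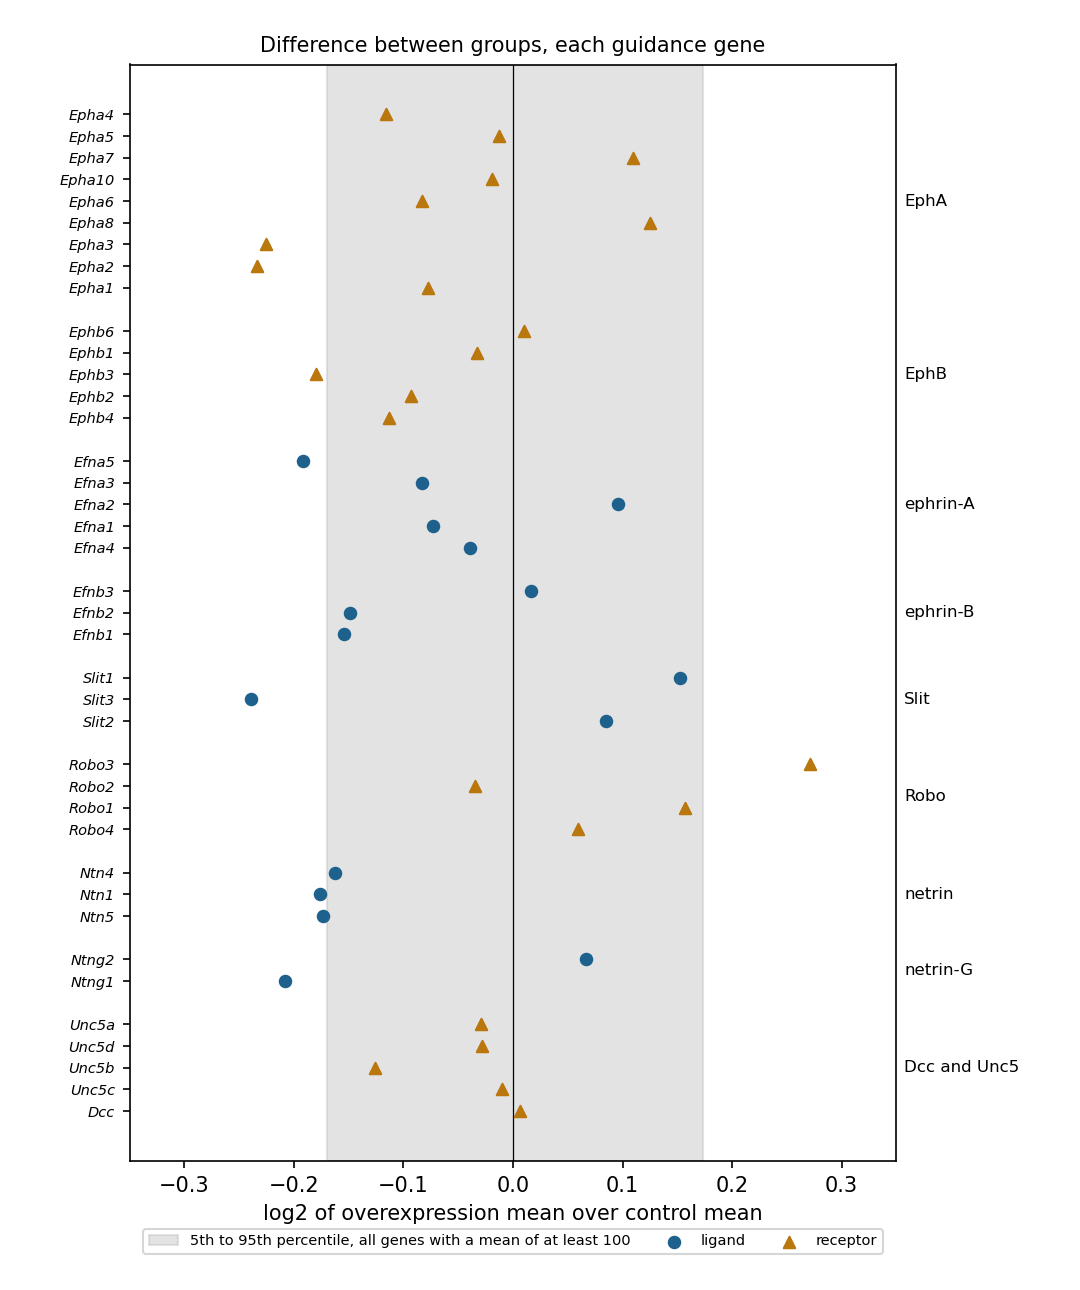
Log2 ratio of group means, overexpression to control (horizontal axis), for each of the 39 guidance genes, arranged by family, with circles for ligands and triangles for receptors. The grey band spans the 5th to 95th percentile of all genes whose mean reached 100, from -0.17 to 0.17; 1 member, Robo3 at 0.27, lies to its right and 8 of the 39 lie to its left, with Slit3 at -0.24 the farthest.

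Ligands and receptors had similar shares of lower means. Among 16 ligands 11 were lower and 5 higher in overexpression cortex, with a median log2 fold change of -0.12. Among 23 receptors 16 were lower and 7 higher, with a median of -0.03. Scaling both groups to the same total moved the receptor median to 0.00262, so it had no firm sign. These medians describe the lists and were not tested against each other. In bulk tissue, fewer cells of a type and less RNA per cell cannot be told apart.

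EphA receptors covered the widest range of levels. Epha4, which binds ephrins of both classes, was the highest at 822 per kilobase in overexpression cortex and 891 in control cortex. Its means were 6623 in overexpression and 7177 in control cortex. Epha5, Epha7 and the kinase-inactive Epha10 followed at 164, 163 and 118 per kilobase in overexpression cortex and 166, 151 and 120 in control cortex. Their means were 2751, 1612 and 852 in overexpression cortex, against 2775, 1494 and 863 in control cortex. At the low end Epha1 and Epha2, known mainly from epithelia, had means of 9.88 and 46.02 in overexpression cortex and 10.4 and 54.1 in control cortex. Epha1 varied widely, with 12.2, 12.2 and 5.17 in overexpression libraries and 7.13, 5.40 and 18.7 in control libraries. Leaving out 1 library moved its limma log2 fold change to values between -0.30 and 0.51, against 0.02 with all 6. The 236 exon bases that Epha1 shares with Zyx on the opposite strand make up 6.01% of its length, and with the strand setting not given in the sources used here, reads of Zyx could count there. Of 9 EphA genes 7 were lower and 2 higher in overexpression cortex, with a median log2 fold change of -0.08.

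Epha2 and Epha3 had the largest negative log2 fold changes among Eph receptors, at -0.23 for both. Epha2 had library values of 30.1, 48.9 and 58.98 in overexpression cortex, against 50.9, 50.8 and 60.7 in control cortex. Overexpression libraries A and B lay below each control library and library C inside their range. Without library A the limma log2 fold change was -0.01 in place of -0.28. For Epha3 the values were 220.0, 195.8 and 275.2 in overexpression cortex and 267.8, 314.3 and 226.1 in control cortex, so the groups overlapped. Its limma log2 fold change was -0.23, with a 95% interval from -0.57 to 0.12 and an adjusted p of 0.999. Epha8 ran the other way, at 264.0, 323.7 and 281.4 in overexpression cortex and 217.9, 311.0 and 268.0 in control cortex, again with overlap. Without control library A its log2 fold change by limma was -0.000195 in place of 0.13.

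EphB receptors were led by Ephb6, a member without kinase activity, at 851 per kilobase in overexpression cortex and 845 in control cortex. Ephb1 stood at 199.8 and Ephb2 at 84.4 per kilobase in overexpression cortex, against 204.4 and 90.05 in control cortex. Means of Ephb6, Ephb1 and Ephb2 were 3211, 1399 and 1065 in overexpression cortex and 3188, 1431 and 1135 in control cortex. Ephb3 had a mean of 809 in overexpression cortex and 917 in control cortex, a log2 fold change of -0.18. Its control libraries were recovered at 848, 1005 and 898, a mean of 917 ± 80.5 (SD, n = 3), so the overexpression mean lay below each control library. Its overexpression libraries could not be resolved, since 5 combinations of whole reads gave the same mean. In each of these 5, at least 1 overexpression library lay above the lowest control library, so the groups overlapped in all 5. Ephb4, the receptor of venous endothelium, had values of 133.6, 134.6 and 168.7 in overexpression cortex and 174.1, 170.6 and 127.9 in control cortex, and the groups overlapped. In all, 4 of 5 EphB genes had a lower mean in overexpression cortex and 1 a higher mean.

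Among the ephrin-A ligands Efna5, which is graded across developing somatosensory cortex, was the highest at 266 per kilobase in overexpression cortex and 304 in control cortex. Its means of 1072 in overexpression and 1224 in control cortex gave a log2 fold change of -0.19, with p = 0.259 in the authors' deposited table. Efna3 had library values of 412.3, 399.0 and 418.0 in overexpression cortex and 448.0, 387.7 and 466.5 in control cortex. Efna2 stood at 239.6, 220.2 and 256.6 in overexpression cortex, against 194.5, 241.9 and 233.8 in control cortex. Both genes overlapped between the groups, and their 95% limma intervals ran from -0.30 to 0.14 for Efna3 and from -0.18 to 0.38 for Efna2 on the log2 scale. An antisense transcript covers 14.1% of the exon length of Efna3. Efna1 had 64.4, 62.1 and 55.9 in overexpression cortex and 52.9, 58.3 and 80.5 in control cortex, or 60.8 ± 4.40 in overexpression cortex and 63.9 ± 14.6 in control cortex (SD, n = 3 each). Control library C, at 80.5, was its highest value, and without that library the limma log2 fold change was 0.12 in place of -0.05. Efna4, the lowest member by mean, had 5.70, 5.65 and 4.14 in overexpression cortex and 6.11, 5.40 and 4.41 in control cortex, and 10.5% of its exon length lies under an antisense transcript.

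Ephrin-B ligands were dominated by Efnb3, with 609 per kilobase in overexpression cortex and 602 in control cortex, from means of 1937 in overexpression cortex and 1915 in control cortex. Efnb2, the arterial partner of Ephb4, had means of 1137 in overexpression cortex and 1260 in control cortex, a log2 fold change of -0.15. The X-linked Efnb1 had library values of 180.1, 169.4 and 205.9 in overexpression cortex and 217.9, 218.2 and 181.96 in control cortex. Control library C lay inside the overexpression range, and the limma interval for Efnb1 ran from -0.45 to 0.14. The 3 genes named above as β-catenin-responsive in intestine, Ephb2, Ephb3 and Efnb1, each had a lower mean in overexpression cortex. Their log2 fold changes were -0.09, -0.18 and -0.15. Of all genes whose mean reached 100, 57.8% were also lower. The direction of each response in intestine was not compared here, so the 3 lower means are not read as 1 response. None of these 3 passed in the authors' deposited table, and Efnb1, the one with recovered libraries, had an adjusted p of 0.999 by limma.

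**Figure D2:**
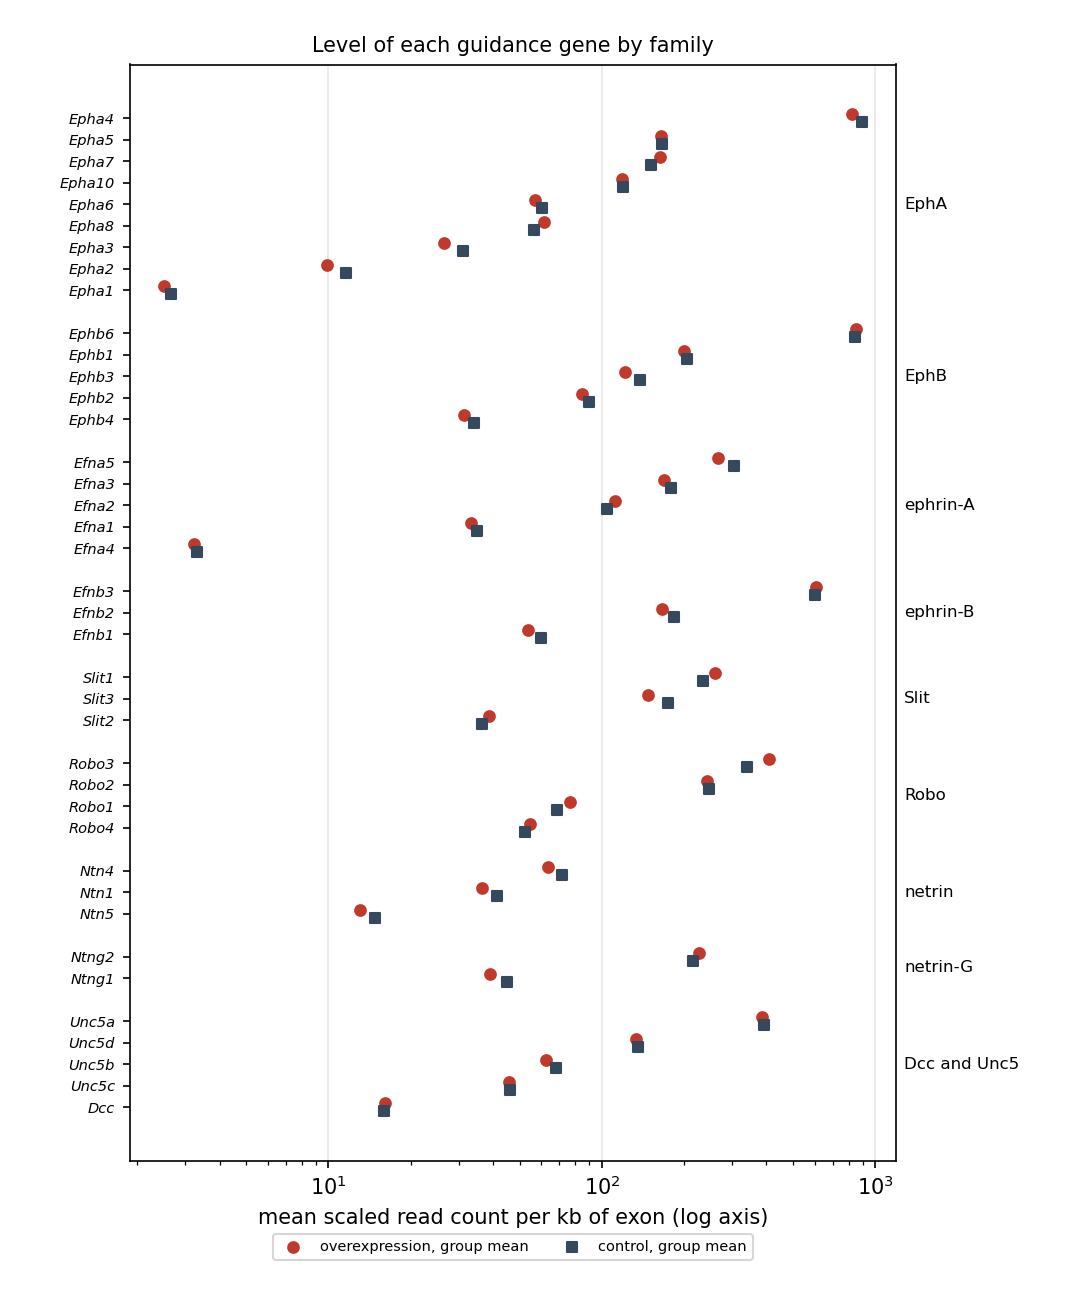
Mean scaled read count per kilobase of exon (horizontal, log axis) for 39 guidance genes by family, with circles for overexpression cortex and squares for control cortex. Levels run from 2.51 per kilobase for Epha1 in overexpression cortex to 891 for Epha4 in control cortex, and within each gene the 2 groups lie close together.

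Slits and Robos held both ends of the range among the 39 members, Robo3 at the top and Slit3 at the bottom. Robo3, a divergent Robo that governs midline crossing of commissural axons, had means of 2799 in overexpression cortex and 2320 in control cortex, a log2 fold change of 0.27. Its p was 0.248 in the authors' deposited table, and its libraries could not be recovered. On the per-kilobase scale Robo3 was the highest of the 4 Robo genes, at 409 in overexpression cortex and 339 in control cortex. Robo2 followed at 242 and Robo1 at 76.3 in overexpression cortex, against 247 and 68.4 in control cortex. Robo2 had means of 4103 in overexpression cortex and 4201 in control cortex, Robo1 1259 in overexpression cortex and 1130 in control cortex, and Slit1 1537 in overexpression cortex and 1384 in control cortex. Robo1 and its ligand gene Slit1 had log2 fold changes of 0.16 and 0.15, with p = 0.628 and 0.677 in the authors' deposited table. Slit3 had means of 897 in overexpression cortex and 1059 in control cortex, a log2 fold change of -0.24. Its p was 0.567 in the authors' deposited table. Each of the 3 library combinations that gave its overexpression mean had an SD of 280 or more. Slit2 had a mean of 981 in overexpression cortex and 924 in control cortex. Its control libraries lay at 940, 910 and 923, a coefficient of variation of 1.59%. Robo4, an endothelial Robo, had 275.4, 285.2 and 306.3 in overexpression cortex and 274.9, 257.0 and 299.96 in control cortex.

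All 3 measured netrins had lower means in overexpression cortex, with log2 fold changes between -0.18 and -0.16. Ntn1, the classical Dcc ligand, had library values of 204.5, 224.9 and 257.6 in overexpression cortex, against 247.4, 275.4 and 253.6 in control cortex. Ntn4, a netrin of basement membranes, had 198.8, 250.3 and 264.9 in overexpression cortex, against 251.5, 270.0 and 277.9 in control cortex. In both genes overexpression library C reached into the control range while library A was the lowest of the 6. By limma, p was 0.171 for Ntn1 and 0.215 for Ntn4, and the adjusted p was 0.999 for both. Ntn5 was low, with 27.7, 38.6 and 20.7 in overexpression cortex and 29.5, 42.1 and 26.5 in control cortex. Its mean was 29.0 ± 9.02 in overexpression cortex and 32.7 ± 8.30 in control cortex (SD, n = 3 each), and 23.4% of its exon length is shared with Sec1 on the opposite strand. Without overexpression library C its limma log2 fold change was 0.03 in place of -0.18.

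Netrin-Gs are lipid-anchored relatives that bind the synaptic proteins Lrrc4c and Lrrc4 and not Dcc. Ntng1 had library values of 361.0, 284.2 and 317.7 in overexpression cortex and 403.2, 325.1 and 383.8 in control cortex. Library A of the overexpression group lay above control library B, so the groups overlapped. Its p of 0.118 was the smallest among recovered members by limma, with a log2 fold change of -0.21, a 95% interval from -0.48 to 0.06 and an adjusted p of 0.999. Ntng2 had means of 901 in overexpression and 861 in control cortex, and 14.0% of its exon length is shared with another annotated transcript on the same strand.

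The receptors of netrins were led by Unc5a, at 385 per kilobase in overexpression cortex and 393 in control cortex. Its means were 1607 in overexpression cortex and 1639 in control cortex. Unc5d, a receptor for the adhesion protein Flrt2, had 133 per kilobase in overexpression cortex and 136 in control cortex, from means of 1226 in overexpression cortex and 1250 in control cortex. Unc5c had means of 879 in overexpression cortex and 885 in control cortex. Unc5b, which is also endothelial, was the single recovered member whose groups did not overlap. Its values were 406.6, 384.9 and 380.8 in overexpression cortex, against 419.5, 449.3 and 410.2 in control cortex. This was 1 of 15 recovered members at or above a mean of 10, where 2.72% of 10201 recovered genes had every overexpression value below every control value and 4.31% had every value above. By limma its log2 fold change was -0.12, with an interval from -0.33 to 0.08 and an adjusted p of 0.999. Markers of endothelial cells had a higher mean for 4 of 5 genes and summed to 3330 in overexpression cortex and 3207 in control cortex. Their part in the values of Unc5b, Robo4, Ephb4 and Efnb2 was not tested. Dcc was the lowest netrin receptor on the per-kilobase scale, at 16.1 in overexpression cortex and 16.0 in control cortex.

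Across the 15 recovered members whose mean reached 10, limma called 0 at an adjusted p under 0.05, and 0 had an unadjusted p under 0.05. Over the 10201 recovered genes the shares by limma were 0% adjusted and 2.06% unadjusted, with 1.42% higher and 0.637% lower. The typical 95% interval reached 1.23-fold to either side (median over the 15 members), from 1.15-fold at the narrowest to 2.14-fold at the widest. These widths describe the precision of a fold change and are not detection limits. The sign of the limma fold change changed for 4 of the 15 members, Epha1, Epha8, Efna1 and Ntn5, when 1 library was left out, and the other 11 kept it.

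**Figure D3:**
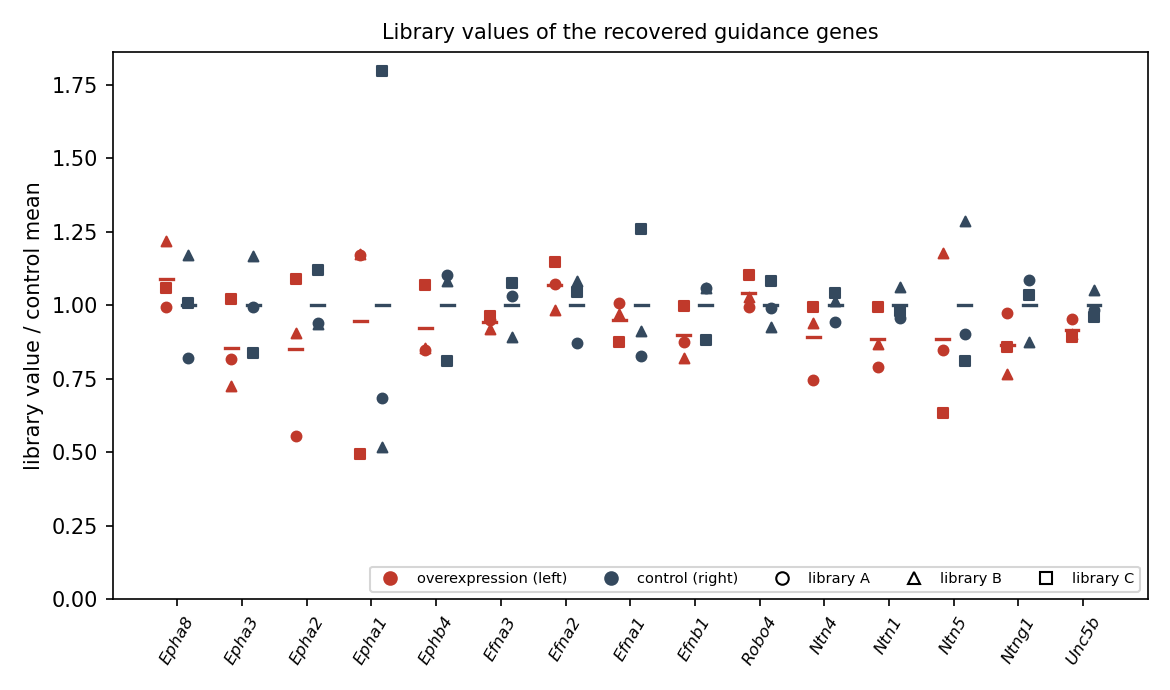
Recovered library values divided by the control mean (vertical axis, from 0) for the 15 guidance genes with both groups recovered and a mean of at least 10. Red symbols on the left are overexpression libraries, dark symbols on the right control libraries, symbol shapes mark libraries A, B and C, and short bars the group means; Unc5b is the single gene without overlap.

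Among members with a control mean of at least 100 and recovered control libraries, Epha6 and Dcc varied the most between those libraries. Epha1, at a control mean of 10.4, had a larger coefficient of variation of 69.6% in control libraries. Epha6, a receptor of ephrin-As, had means of 300.5 in overexpression cortex and 318.4 in control cortex. Its control libraries were at 355, 476 and 124, a coefficient of variation of 56.3%, where the median over 7293 recovered genes with a control mean of 100 to 1000 was 8.22% and the 95th percentile 22.3%. Dcc had control values of 215, 267 and 150, a coefficient of variation of 27.8%. Control library C was thus the lowest for both genes. In overexpression cortex 2 combinations gave the mean of each gene, and in both of them library B was well below the group mean, at 120 or 111 for Epha6 and at 81.9 or 73.4 for Dcc. Library B was the lowest in both combinations for Epha6 and in 1 for Dcc; in the other Dcc combination library C was lower still, at 47.6. The plot of control libraries sets these genes beside region markers.

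Some markers of hippocampus and thalamus were low in control library C and in overexpression library B. In the control group Prox1 was at 1274, 886 and 343, Lct at 357, 415 and 110, and Lhx9 at 49.9, 54.0 and 1.10 in libraries A, B and C. In the overexpression group Lct was at 337, 152 and 362 and Lhx9 at 108, 11.3 and 86.9. The 2 recovered hippocampal markers of 4 summed to 1631, 1300 and 453 in control libraries A, B and C, and control library C was the lowest for 2 of 4 recovered thalamic markers, which summed to 760, 794 and 689. In overexpression libraries the same 4 thalamic markers summed to 914, 713 and 875, and library B was the lowest for 3 of them. Thalamic Tcf7l2 and Calb2 were not low in control library C. Other region markers had other libraries lowest or highest. In the control group 4 recovered striatal markers summed to 642, 1185 and 1471 in libraries A, B and C, and 5 choroid plexus markers to 190.4, 838 and 137.8. Between the groups, striatal markers had a higher mean for 5 of 5 genes, with a median log2 fold change of 0.36, the largest of the marker lists, and summed to 3343 in overexpression cortex and 2949 in control cortex. The part of these markers in the values of Epha6 and Dcc was not tested. With overexpression library B and control library C both left out, an alternative chosen after seeing the data, limma again called 0 of the 15 members. Their median log2 fold change was -0.14 in place of -0.12. Epha6 and Dcc are not among these 15, so that fit does not bear on them. Limma called 0 of 10201 genes with all 6 libraries, so a count of 0 with fewer libraries was likely in advance. Cortical excitatory markers had a lower mean for 6 of 7 genes, with a median log2 fold change of -0.06. Interneuron markers had a lower mean for 5 of 5 genes and summed to 10859 in overexpression cortex and 12088 in control cortex, and oligodendrocyte markers had a higher mean for 4 of 4. No marker of the striatal, interneuron or oligodendrocyte list had an unadjusted p under 0.05 by the authors' deposited table.

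**Figure D4:**
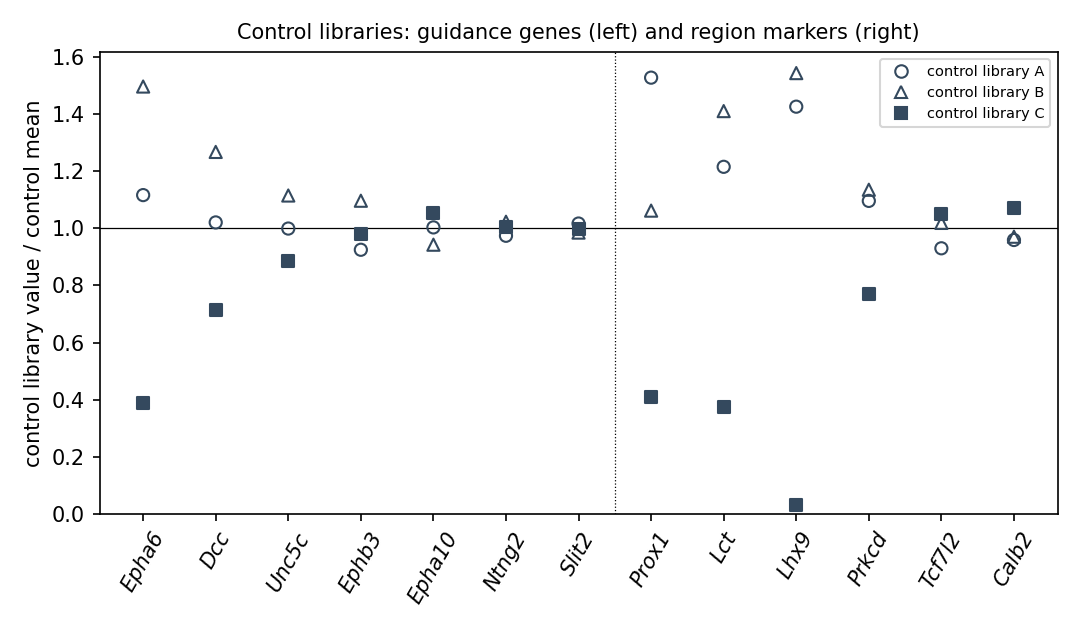
Values of control libraries A, B and C divided by the control mean (vertical axis, from 0) for 7 guidance genes with recovered control libraries (left of the dotted line) and 6 markers of hippocampus or thalamus (right). Filled squares mark control library C, which is lowest for Epha6, Dcc and Unc5c and for Prox1, Lct, Lhx9 and Prkcd, while Slit2 and Ntng2 hardly vary. Library C is highest for Epha10, Tcf7l2 and Calb2 and in between for Ephb3, Slit2 and Ntng2. Of 10201 recovered genes, 30.1% had control library C as the lowest control library.

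Partners of these receptors likewise had no adjusted p under 0.05. In the authors' deposited table, 0 of 50 signalling partners, co-receptors and alternative ligands had an adjusted p under 0.05. The share of tested genes was 0%. Unadjusted, the same table put 0 of the 50 under 0.05, against 0.534% of tested genes. Of the 50, 33 were lower and 17 higher in overexpression cortex, with a median log2 fold change of -0.03. Of 8 partners with recovered libraries limma called 0 at an adjusted p under 0.05, where 0% of 10201 recovered genes passed. An unadjusted p under 0.05 by limma was reached by 1 of the 8, Nck1, against 2.06% of recovered genes. Nck1, an adaptor protein of receptor tyrosine kinases, had 330.0, 297.4 and 312.5 in overexpression cortex, against 387.9, 387.7 and 350.7 in control cortex. Its groups did not overlap, with every overexpression value below every control value, as in 2.72% of recovered genes. Its limma log2 fold change was -0.26, with a 95% interval from -0.48 to -0.04, an unadjusted p of 0.0254 and an adjusted p of 0.999; it was named after its values were seen. The highest were Kalrn, which acts downstream of EphB receptors, and Nell2, a Robo3 ligand. Kalrn had a mean of 11639 in overexpression cortex and 12941 in control cortex, and Nell2 11312 in overexpression cortex and 12339 in control cortex. Trim9, which binds Dcc, was at 9126 in overexpression cortex and 9234 in control cortex, and Srgap3, a Robo effector, at 8028 in overexpression cortex and 8230 in control cortex.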

How the data were processed

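RNA-seq was done on total RNA of cortex, extracted with Trizol and made into libraries with the Illumina TruSeq RNA kit, per the labels' protocols. The submitters' processing notes list TopHat2 2.0.9 with Bowtie2 2.0.6. For genome build, annotation, read counter, strand setting and differential test the value is not given in the sources used here. Per gene and group, the authors deposited 1 signal value (a mean scaled read count, as read from the values), and, per the file headers, p-values, raw and adjusted. Fold changes were recomputed from the group means. Symbols were found for 46488 of 47069 Ensembl IDs.

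Each group mean is a sum of whole reads of 3 libraries times the worth of 1 read, rounded to 10 significant digits. Scaling factors were 1.23, 1.06 and 0.966 in overexpression libraries A, B and C and 0.982, 0.926 and 0.907 in control libraries A, B and C. Means under 1000 were searched for combinations that fit, over all combinations below 100 and otherwise within 2-fold of the group mean, or within 8-fold where none fitted; single combinations were used. In data simulated with a small spread, 100% of single combinations were right in each range of means. With a very wide spread and means of 100 to 450, 95.2% were right in overexpression and 100% in control libraries. limma 3.58.1 (R 4.3.3) was fitted with a trend to log2(value + 1) of 10201 genes whose mean reached 10, 59.7% of such genes, with Benjamini-Hochberg adjustment over all; fold changes of low genes are understated on this scale. On simulated data of 10201 genes it called 39% of 100 genes changed 1.5-fold and 83% of 100 changed 2-fold. Every simulated gene had the same dispersion of 0.01, so these rates need not hold for genes with a wider spread. The members and lists were chosen with earlier results of these data known. The members with the largest differences, those with recovered libraries and the 4 highest partners are described.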

Additional observations from a re-analysis of the deposited data

How the results depend on the processing

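No guidance gene passed the authors' threshold with the adjustment limited to genes with a mean of at least 10, and none had an unadjusted p under 0.05. With both groups scaled to the same total, the receptor median log2 fold change was 0.00262, where the main value was -0.03; the cause lies in the scaling itself, which shifted every gene by 0.03. The medians of all members and of the ligands kept their negative sign under the 5 alternatives run. With both groups scaled to the same total, however, the median of all members was -0.0078, where the main value was -0.04. That of the ligands was -0.084, where the main value was -0.12. The limma count of members was 0 with pseudocounts of 0.5 and 5, without a filter on low means, with a minimum mean of 50, with quantile normalization, with limma-voom and with both overexpression library B and control library C left out. With each library left out in turn the count ranged from 0 to 0 at an adjusted p, while an unadjusted p under 0.05 was reached by Epha3 without overexpression library C and by Ntng1 without overexpression library A or control library B. By the authors' deposited table, no partner gene reached an unadjusted p under 0.05, where 0.534% of tested genes did. No paired analysis was possible because the recovered libraries carry no replicate number. No member with a mean above 450 has recovered overexpression libraries, so their spread is not known here.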
